A study of Mus musculus with 20 samples.

Results

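The 9 enzyme genes Hpd, Hgd, Fah, Gatm, Dao, Miox, Bbox1, Ass1 and Gldc of the proximal tubule were followed across the 4 groups of mouse kidneys. They were selected by symbol, after Hpd had been seen among the strongest rises under anti-miR-21, so the comparison of Anti-miR-21 with Veh chose them and is given here as a description with no test. The set holds 9 of the 47069 genes in the count table, and all 9 were among the 17622 genes with enough counts to be tested.

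Kidney total RNA of 20 male mice, 15 weeks old at sacrifice, was sequenced. The F1-Col4a3-/- mice, crosses of the 129 and C57BL/6J strains, lack the α3 chain of type IV collagen and serve as a model of Alport syndrome of intermediate severity. From 5 weeks of age, 6 of these mice received weekly subcutaneous PBS (Veh), 6 received weekly lademirsen at 50 mg/kg (Anti-miR-21, an oligonucleotide that blocks miR-21), and 3 received ramipril in the drinking water at 11 mg/L (ACEi, an inhibitor of the angiotensin converting enzyme). The library table gives the ramipril dose as 4 mg/kg instead. By the study's methods the ACEi mice were also injected with PBS each week. The 5 wild-type (WT) mice were not injected, so all 3 Col4a3-/- groups differed from WT in genotype and in injection, which cannot be told apart. Mice are named as in the labels (A1 to A23), and the labels place the libraries on 2 flow cells, 13 on a flow cell called A here and 7 on another called B.

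The proximal tubule reabsorbs most filtered amino acids and uses them for energy, for glucose and for products it returns to the blood. In tyrosine breakdown, Hpd converts hydroxyphenylpyruvate to homogentisate, Hgd opens the homogentisate ring, Gstz1 isomerises the product and Fah splits it into fumarate and acetoacetate. The other members belong to other routes. Gatm makes guanidinoacetate, the precursor of creatine, Ass1 carries the rate-limiting step of arginine synthesis from citrulline, Gldc is the glycine-binding subunit of the glycine cleavage system, and Dao oxidises D-amino acids in peroxisomes. Miox starts inositol breakdown and Bbox1 completes carnitine synthesis, so neither is an amino acid breakdown enzyme in the strict sense.

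The promoter sequences of the tyrosine pathway enzymes are shown because Hpd, Hgd and Fah act on the same route and fell together by unequal amounts. Each run is the 250 bases before the start site in the RefSeq table (GRCm38.p6), written 5′ to 3′ on the strand of the gene. Capitals mark matches on either strand to the TATA box (letters TATAAA), the CCAAT box or the HNF4 motif (letters CAAAGTCCA). They also mark matches to the nuclear receptor motif (letters AGGTCA) and the HNF1 motif (letters GTTAAT).
Hpd (chr5:123182724-123182973, - strand): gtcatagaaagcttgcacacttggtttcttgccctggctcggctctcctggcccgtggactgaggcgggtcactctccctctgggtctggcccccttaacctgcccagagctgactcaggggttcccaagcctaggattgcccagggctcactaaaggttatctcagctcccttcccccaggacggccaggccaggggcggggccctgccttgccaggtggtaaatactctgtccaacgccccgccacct
Hgd (chr16:37579903-37580152, + strand): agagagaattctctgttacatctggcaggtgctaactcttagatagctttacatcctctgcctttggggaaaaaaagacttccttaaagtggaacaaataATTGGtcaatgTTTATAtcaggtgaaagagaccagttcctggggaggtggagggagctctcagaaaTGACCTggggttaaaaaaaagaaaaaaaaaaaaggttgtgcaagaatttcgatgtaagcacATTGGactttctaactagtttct
Fah (chr7:84605943-84606192, - strand): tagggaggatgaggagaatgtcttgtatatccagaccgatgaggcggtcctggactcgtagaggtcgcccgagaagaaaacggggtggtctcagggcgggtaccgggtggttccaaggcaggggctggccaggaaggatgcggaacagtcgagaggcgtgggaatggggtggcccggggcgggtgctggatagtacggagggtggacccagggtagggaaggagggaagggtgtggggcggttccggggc

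Hpd and Fah held no match in this window and were rich in G and C, at 62.8% and 64.4%, against a median of 52.4% over 32851 promoters of the same length. Hgd, at 38.8%, held a match to the TATA, CCAAT and AGGTCA letters. Over the 11 promoter entries of the 9 genes, TATAAA was found in 3 genes (Bbox1, Miox and Hgd) and in 12.4% of all promoters, CCAAT in 4 genes (Gatm, Dao, Hgd and Gldc) and 33.8%, and AGGTCA in 4 genes (Gatm, Dao, Miox and Hgd) and 4607 of the 32851 promoters. GTTAAT was found in 1 gene (Miox) and in 6.43% of all promoters. CAAAGTCCA was found in none of the 9 genes and in 0.384% of all promoters. These are matches of letters in a short window, not sites.

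Mature miR-21, the target of lademirsen, is given with its seed (bases 2 to 8) in capitals, so that the members' transcripts can be set beside it. It is encoded at chr11:86584120-86584141 on the - strand (RefSeq, GRCm38.p6).
mmu-miR-21a-5p: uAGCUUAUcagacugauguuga
The 7-base match to this seed, ATAAGCT, was present in the 3′ UTR of 1 of the 9 members, Bbox1. Over 15309 tested coding genes, 7.45% held it in the 3′ UTR of their longest coding transcript. The 3′ UTR of Bbox1 had 2757 bases, and those of the other members had 106 bases (Fah) to 1030 bases (Gatm), below the median of 1090 bases over the genes searched.

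On GRCm38, Hpd (ENSMUSG00000029445) lies at chr5:123171807-123182727, inside the loci of Gm26745 on the same strand and Psmd9 on the opposite strand, with no exon overlap with either. The other loci are Hgd at chr16:37580153-37632020, Fah at chr7:84585159-84606722, Gatm at chr2:122594467-122611303, Dao at chr5:114003703-114025682, Miox at chr15:89334398-89337015, Bbox1 at chr2:110262697-110314560, Ass1 at chr2:31470207-31520672 and Gldc at chr19:30098447-30175429. Hgd overlaps the antisense gene Gm46559 and Gldc the pseudogene Rpl31-ps20, in neither case within exons.

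Each library held 28474272 to 29479600 estimated counts on genes. Levels are given as counts scaled to library size (CPM) after TMM scaling, a correction for differences in RNA composition, and differences as log2 fold changes with their standard error (SE) from edgeR's quasi-likelihood test over all 20 mice. A gene was called at a Benjamini-Hochberg adjusted p under 0.05 over all genes tested. The shares of all genes given beside member counts are of this fit, not of the fits on fewer libraries. Col4a3 itself had 193.8 to 237.5 CPM in WT and 27.9 to 74.9 CPM in the 15 Col4a3-/- mice. Veh mouse A16 lay nearest to WT among the Veh mice and had the highest level of all 9 members, and A9 had the lowest level of 7. Low levels of liver transcripts were present in 5 libraries (WT A17 and A18, Veh A20, ACEi A13 and A23), with Alb at 21.8 to 96.5 CPM against at most 11.0 CPM in the other libraries and Serpina3k at 1.36 to 6.04 CPM against at most 0.591 CPM. Fat transcripts were present in 4 libraries (Veh A1, A4 and A9 and Anti-miR-21 A12), with Adipoq at 26.0 to 33.1 CPM against at most 6.42 CPM elsewhere, and the labels' extraction text speaks of adipose tissue although the tissue is given as kidney. Member calls that changed without these libraries are given beside them.

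To ask what the disease did to these enzymes, Veh was compared with WT. All 9 members were called lower in Veh, where 34.0% of all genes tested were called lower and 39.0% higher. The median log2 fold change of the members was −2.29, against 0.07 over all genes tested. The members' Veh mice are also those of the comparison that chose them, so this result is not independent of the choice. When libraries were scaled by their totals alone, the median of all genes moved to 0.65 and that of the members to −1.72, still with all 9 below 0. In that fit 8 members were called and Bbox1 was not, and the share of called genes that were higher moved from 53.4% to 81.2%. In whole kidney RNA, fewer proximal tubule cells and less RNA per cell cannot be told apart.

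Hpd fell most. It had 93.3, 31.5, 43.9, 39.4 and 61.6 CPM in WT mice A3, A6, A14, A17 and A18. In Veh mice A1, A4, A9, A16, A19 and A20 it had 0.553, 1.10, 0.420, 6.02, 1.48 and 3.75 CPM. Every Veh mouse was below every WT mouse, and among Veh mice both libraries of flow cell B, A16 and A20, were above all 4 of flow cell A. The log2 fold change was −4.62 (SE 0.50, adjusted p = 4.75e-08), a 24.6-fold difference. Without A16 it was −5.20. On flow cell A alone it was −5.97 and on flow cell B alone −3.37, and without the libraries with liver transcripts, which include A20, it was −4.90. Without the libraries with fat transcripts it was −3.85. Those in Veh, A1, A4 and A9, are all of flow cell A and had the lowest Hpd.

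The later enzymes of the same route fell less. Hgd had 463.3 to 580.8 CPM in WT and 62.7 to 183.5 CPM in Veh, with a log2 fold change of −2.28 (SE 0.22, adjusted p = 9.33e-09). Fah had 516.8 to 663.5 CPM in WT and 92.0 to 175.4 CPM in Veh, with a log2 fold change of −2.37 (SE 0.18, adjusted p = 2.73e-10). Neither pair of groups overlapped. The difference between the falls of Hpd and of these 2 genes was not itself tested.

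Among the enzymes of arginine, creatine and glycine, Ass1 had 3287 to 5110 CPM in WT and 430.9 to 1444 CPM in Veh, with a log2 fold change of −2.46 (SE 0.26, adjusted p = 3.97e-08). Gatm had 727.0, 1151, 596.1, 672.3 and 514.1 CPM in WT mice A3, A6, A14, A17 and A18, and 89.5 to 339.8 CPM in Veh, with a log2 fold change of −2.03 (SE 0.26, adjusted p = 7.55e-07). WT mouse A6 stood above the other WT mice in Gatm. Gldc had 62.6 to 113.7 CPM in WT and 11.4 to 32.8 CPM in Veh, with a log2 fold change of −2.29 (SE 0.23, adjusted p = 1.44e-08).

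Miox, the inositol oxygenase, had 1945 to 2386 CPM in WT and 96.4 to 577.6 CPM in Veh, with a log2 fold change of −2.87 (SE 0.31, adjusted p = 5.86e-08). Dao had 449.1 to 522.7 CPM in WT and 121.4 to 207.8 CPM in Veh, with a log2 fold change of −1.69 (SE 0.12, adjusted p = 1.83e-10). Dao showed the smallest fall among the members other than Bbox1, and the smallest SE. On flow cell B alone, the 8 members other than Bbox1 were all called lower, from −3.37 (Hpd) to −1.11 (Gatm).

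Bbox1 was near the limit of detection, with 4 to 35 estimated counts per mouse. It had 1.16, 0.943, 0.591, 0.164 and 0.419 CPM in WT mice A3, A6, A14, A17 and A18. In Veh mice A1, A4, A9, A16, A19 and A20 it had 0.138, 0.112, 0.140, 0.525, 0.385 and 0.423 CPM. The groups overlapped, and the log2 fold change was −1.18 (SE 0.44, adjusted p = 0.0213). This call was lost without WT mouse A3 (adjusted p = 0.0926), without WT mouse A6 (adjusted p = 0.0630) and without the libraries with fat transcripts (adjusted p = 0.290), and the sign was positive on flow cell B alone, at 0.69. The call was also lost with library totals alone (adjusted p = 0.198) and with only the groups compared (adjusted p = 0.0572). With limma on log2(FPKM + 1) and log2(FPKM + 0.1) it was lost too (adjusted p = 0.247 and 0.205). Bbox1 was the exception to the other 8 members, in which every Veh mouse lay below every WT mouse, as 26.1% of all genes tested did.

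**Figure D1:**
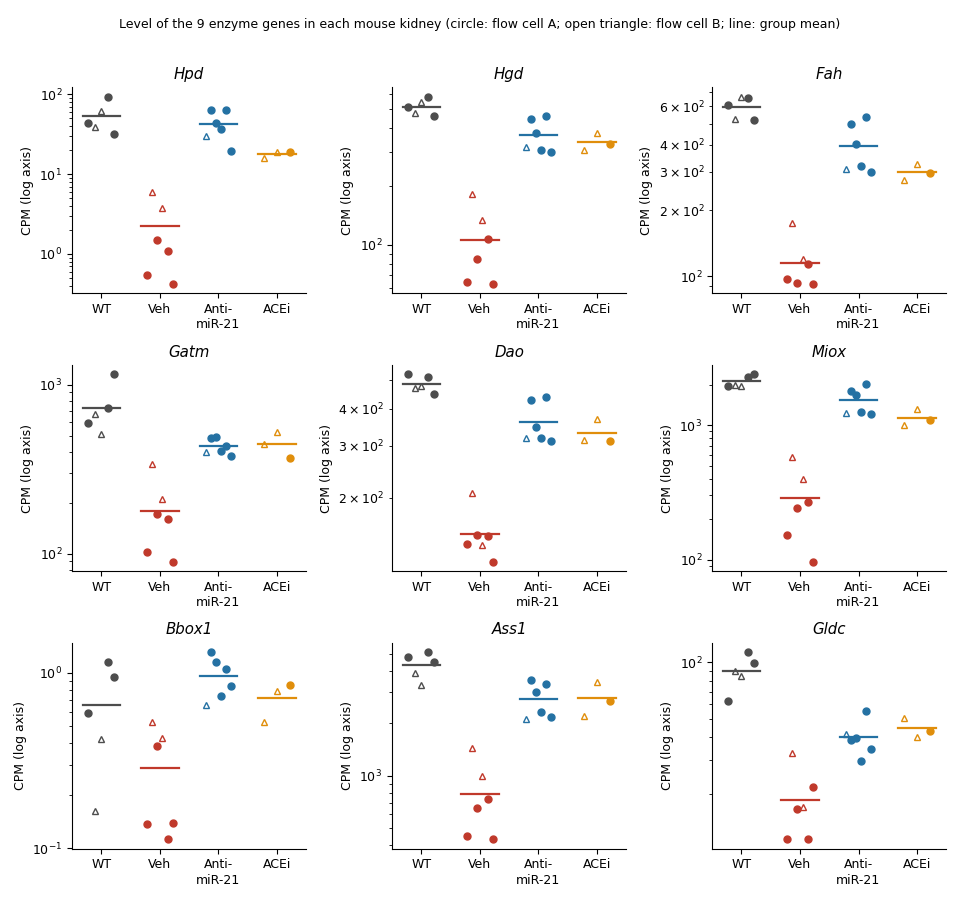
Level of each of the 9 genes in every mouse, as CPM on a log axis, by group. Filled circles are libraries of flow cell A, open triangles those of flow cell B and the lines group means. In all panels but that of Bbox1 the Veh mice lie below the WT mice, and Veh mouse A16, the highest open triangle of its group, had 6.02 CPM of Hpd against 0.420 CPM in A9.

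The members were compared with markers of the cell type they are assigned to. Of 11 proximal tubule markers, 10 were called lower in Veh and 1, the sulfate transporter Slc13a1, higher. Their summed level was 17790 to 22790 CPM in WT and 2804 to 6504 CPM in Veh. The transporters and receptors Slc34a1, Lrp2 and Slc27a2 had log2 fold changes of −2.66, −2.40 and −2.67. All 6 macrophage markers, all 5 fibroblast markers, all 5 T cell markers and all 5 tubule injury markers were called higher in Veh, with summed injury markers at 23.2 to 35.4 CPM in WT and 835.9 to 1352 CPM in Veh. Markers of other nephron segments were called lower too: 3 of 4 distal tubule markers (median log2 fold change −1.66), 3 of 4 thick ascending limb markers and 4 of 6 collecting duct markers (median −0.77). The remaining distal tubule marker, Trpm6 (0.44), and the remaining thick ascending limb marker, Cldn16 (0.59), were called higher. The part of these shifts in the members' fall was not tested.

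Set against the mean log2 CPM of the 11 proximal tubule markers in the same mouse, the members differed in how far they lay from the markers. This mean itself was 9.50 ± 0.20 (SD, n = 5) in WT and 7.66 ± 0.39 (SD, n = 6) in Veh. Relative to it, Hpd was lower in Veh than in WT by −3.19 on the log2 scale, Miox by −1.26 and Ass1 by −0.73, and in these 3 every Veh mouse lay below every WT mouse. Fah differed by −0.56, Hgd by −0.54, Gldc by −0.52 and Gatm by −0.28, with overlapping mice, and Dao by 0.13 and the sparsely counted Bbox1 by 0.87. These values are a description with no test, since the marker mean is one of many that could be taken. It includes Slc13a1, which rose in Veh (log2 fold change 0.59) and so made the mean fall less.

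**Figure D2:**
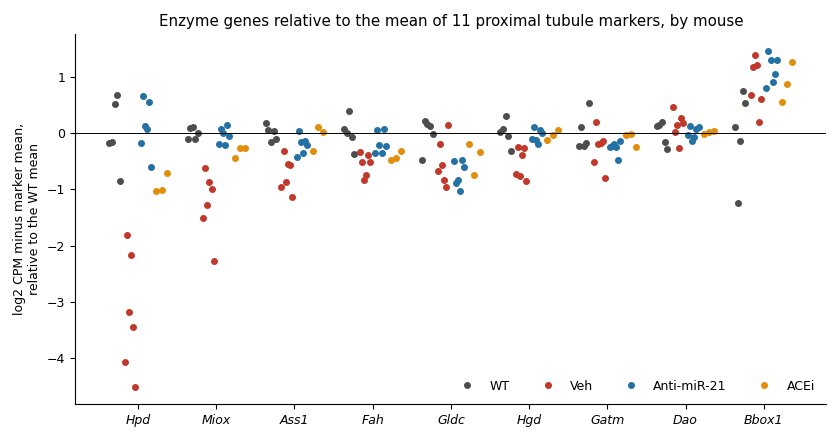
Level of each gene relative to the mean of 11 proximal tubule markers in the same mouse, as a log2 difference set to 0 at the WT mean, with 1 point per mouse. The Veh points of Hpd lie far below 0, with a mean difference of −3.19, while those of Dao lie around 0, and the points of Bbox1 rest on few counts.

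Per length, as the fragments scaled to transcript length and library size (FPKM) deposited by the authors, the members spanned a wide range of levels. In WT, Ass1 had 2172 ± 326.0 FPKM (SD, n = 5) and Miox 1611 ± 165.1 FPKM, and these overlapped. Fah (308.1 FPKM), Gatm (254.0 FPKM) and Hgd (248.8 FPKM) followed and overlapped as neighbours, then Dao at 190.4 to 215.1 FPKM, with no overlap with Hgd. Hpd had 31.5 ± 13.2 FPKM and Gldc 19.6 ± 3.88 FPKM, which overlapped, and Bbox1 had 0.281 ± 0.150 FPKM. In Veh the order changed at Hpd, which at 1.93 ± 1.83 FPKM (SD, n = 6) ranked below Gldc at 6.01 ± 2.32 FPKM, although single mice overlapped, and at Dao, which at 93.3 FPKM stood beside Gatm (91.8 FPKM), Fah (89.7 FPKM) and Hgd (76.6 FPKM), all overlapping.

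The comparison of Anti-miR-21 with Veh chose the members, and its values follow with no test. All 9 members were higher with anti-miR-21, with a median log2 fold change of 1.77 against −0.04 over all genes tested. In 8 of them every Anti-miR-21 mouse was above every Veh mouse, as for 18.6% of all genes tested, and 28.8% of all genes tested were called higher and 30.5% lower. Nothing is read from these counts, because a choice by this comparison sets them. With the same treatment the summed proximal tubule markers were at 9913 to 16620 CPM, the macrophage markers at 577.2 to 1109 CPM against 1427 to 1747 CPM in Veh, and the fibroblast markers at 749.0 to 1628 CPM against 3460 to 4427 CPM in Veh. The tubule injury markers were at 267.6 to 555.4 CPM against 835.9 to 1352 CPM in Veh. The T cell markers were at 8.57 to 16.7 CPM against 12.7 to 36.4 CPM in Veh. The part of these shifts in the members' rise was not tested.

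Hpd had 36.4, 19.3, 29.6, 63.5, 43.4 and 63.0 CPM in Anti-miR-21 mice A2, A8, A10, A12, A15 and A22, against 0.420 to 6.02 CPM in Veh. Its log2 fold change was 4.28 (SE 0.48). The highest Veh mouse, A16, had less than the lowest treated mouse, A8. Without A16 the value was 4.88, on flow cell A alone 5.66, and without the libraries with fat transcripts 3.38.

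In the rest of the tyrosine route, Hgd had 302.2 to 460.4 CPM with anti-miR-21 and a log2 fold change of 1.80 (SE 0.21), and Fah had 298.6 to 534.9 CPM and a log2 fold change of 1.77 (SE 0.17). Miox had 1206 to 2007 CPM, with a log2 fold change of 2.40 (SE 0.30), and Ass1 2115 to 3526 CPM, with 1.81 (SE 0.25). Gatm and Dao had log2 fold changes of 1.27 (SE 0.25) and 1.26 (SE 0.12), with 377.2 to 490.7 CPM and 310.5 to 439.8 CPM.

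Gldc, with a log2 fold change of 1.11 (SE 0.21), had the smallest value of the 9. It had 30.0, 34.5, 41.7, 38.7, 39.6 and 55.0 CPM in Anti-miR-21 mice A2, A8, A10, A12, A15 and A22. Mouse A2 lay below Veh mouse A16, at 32.8 CPM, and so Gldc was the member with overlapping groups. Bbox1 had 0.656 to 1.31 CPM, with a log2 fold change of 1.73 (SE 0.41).

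Among the Anti-miR-21 mice, A22 was the highest in 5 members and A12 in 3, while A8 was the lowest in 6. After the group means were removed, the 28 pairs of members without Bbox1 had a median Pearson r of 0.776 over the 20 mice, from 0.398 to 0.938. The 7 pairs with Gldc lay at 0.398 to 0.504, as did that of Fah and Gatm at 0.503. The points share libraries and scaling, and these correlations are a description with no test.

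ACEi was then compared with Veh, which asks whether the other treatment moved the same enzymes. All 9 members were called higher with ACEi, where 21.0% of all genes tested were called higher and 19.1% lower. The median log2 fold change was 1.38 against −0.05 over all genes. In all 9 every ACEi mouse was above every Veh mouse, as for 19.8% of all genes tested. On flow cell B alone, with 2 mice in each group, 6 members were called, and Gatm (0.84, adjusted p = 0.0792), Gldc (0.89, adjusted p = 0.0969) and Bbox1 (0.49, adjusted p = 0.596) were not. The shares above are not of this smaller fit. These Veh mice are shared with the comparison that chose the members.

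Hpd had 15.9, 18.7 and 18.8 CPM in ACEi mice A11, A13 and A23. These lay close together, above all Veh mice and below all WT mice, with a log2 fold change over Veh of 3.02 (SE 0.53, adjusted p = 0.000183). Without Veh mouse A16 it was 3.63, and within flow cell B, which holds the higher Veh mice, it was 1.85.

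Hgd had 307.9, 375.8 and 332.4 CPM in A11, A13 and A23 and a log2 fold change of 1.68 (SE 0.24, adjusted p = 3.09e-05). Fah had 276.3, 326.2 and 295.6 CPM and a log2 fold change of 1.38 (SE 0.19, adjusted p = 2.63e-05). Ass1 had 2211, 3446 and 2676 CPM and a log2 fold change of 1.82 (SE 0.28, adjusted p = 6.31e-05). Beside this, the summed proximal tubule markers were at 10170 to 12690 CPM with ACEi, the macrophage markers at 723.6 to 955.1 CPM and the fibroblast markers at 1815 to 1997 CPM. The tubule injury markers were at 536.0 to 624.2 CPM with ACEi, against 835.9 to 1352 CPM in Veh. The T cell markers were at 12.8 to 21.1 CPM, against 12.7 to 36.4 CPM in Veh. The part of these markers was not tested. A13 was the highest ACEi mouse in 6 members and A11 the lowest in 6.

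Miox rose by 1.98 (SE 0.34, adjusted p = 0.000138), to 1007 to 1321 CPM, and Dao by 1.14 (SE 0.14, adjusted p = 1.36e-05), to 311.1 to 370.0 CPM. Gatm rose by 1.31 (SE 0.29, adjusted p = 0.00155) and Gldc by 1.27 (SE 0.25, adjusted p = 0.000550), to 39.9 to 50.4 CPM. Without the libraries with liver transcripts, which leaves ACEi mouse A11 alone and assumes that it varies like the other groups, Gatm was at 1.37 with an adjusted p = 0.0581. Bbox1 had 0.525 to 0.852 CPM and a log2 fold change of 1.32 (SE 0.49, adjusted p = 0.0373). Its call was lost without the libraries with liver transcripts (1.02, adjusted p = 0.333), without those with fat transcripts (0.72, adjusted p = 0.288), with library totals alone (1.06, adjusted p = 0.0668), and when any of Veh mice A1, A4 and A9 or ACEi mice A13 and A23 was left out. Of the 9 members, 7 were called without the liver-transcript libraries and 8 without the fat-transcript libraries.

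**Figure D3:**
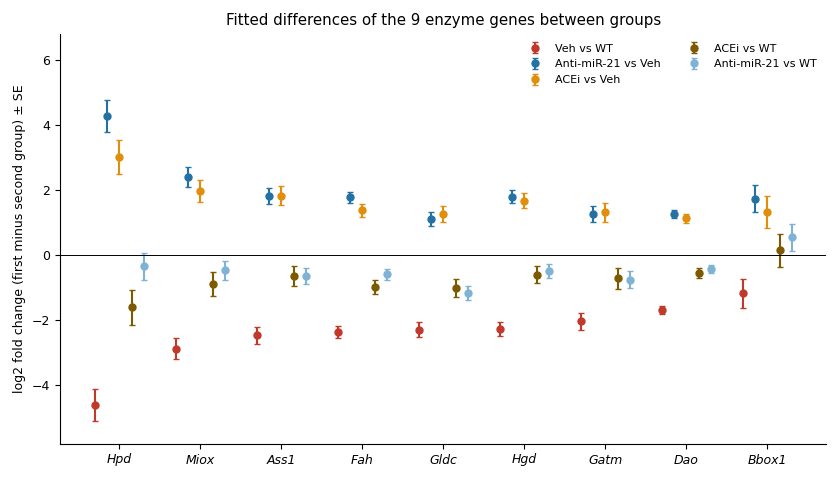
Log2 fold change (vertical axis) of each gene in 5 comparisons, with bars for the SE of the fit, ordered by Veh vs WT. Hpd has the largest values in the comparisons with Veh, −4.62 for Veh vs WT, 4.28 for Anti-miR-21 vs Veh and 3.02 for ACEi vs Veh, and for Hpd the values of the treated mice against WT, −1.60 with ACEi and −0.34 with anti-miR-21, lie closer to 0.

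How far the treated mice remained from WT was asked next. The comparison of ACEi with WT shares no mouse with the comparison that chose the members, while that of Anti-miR-21 with WT shares the Anti-miR-21 mice. With ACEi, 4 members were called lower than WT, where 22.5% of all genes tested were, and in 6 members every ACEi mouse was below every WT mouse, as for 22.3% of all genes tested. Hpd was lower by −1.60 (SE 0.54, adjusted p = 0.0194), Gldc by −1.02 (SE 0.27, adjusted p = 0.00470), Fah by −0.99 (SE 0.21, adjusted p = 0.000841) and Dao by −0.55 (SE 0.15, adjusted p = 0.00444). Miox, at −0.89 (SE 0.37, adjusted p = 0.0550), Gatm, at −0.72 (SE 0.32, adjusted p = 0.0722), Ass1, at −0.63 (SE 0.31, adjusted p = 0.102), and Hgd, at −0.61 (SE 0.26, adjusted p = 0.0633), were not called. With flow cell as a term, Miox (−1.01, adjusted p = 0.0284), Gatm (−0.84, adjusted p = 0.0412) and Hgd (−0.69, adjusted p = 0.0304) were called and Ass1 was not. The fit over all 20 mice draws its SE from the spread of all groups, Veh included. With only the ACEi and WT mice fitted, 8 members were called. Among them were Hgd (SE 0.10, adjusted p = 0.000881), Miox (SE 0.12, adjusted p = 0.000226), Gatm (SE 0.24, adjusted p = 0.0341) and Ass1 (SE 0.17, adjusted p = 0.0159). Without the libraries with liver transcripts 0 members were called with edgeR, with 1 ACEi mouse left, and without those with fat transcripts 8 were. The call of Hpd was also lost when WT mouse A3 or any single ACEi mouse was left out, with values from −1.63 to −1.30. With either limma test the calls of Hpd and Dao were lost, and that of Dao also with library totals alone (−0.24, adjusted p = 0.0657).

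With anti-miR-21, 5 members were called lower than WT, where 19.8% of all genes tested were, and in 4 members every treated mouse was below every WT mouse, as for 9.06% of all genes tested. Gldc remained farthest, at −1.18 (SE 0.22, adjusted p = 0.000262), followed by Gatm at −0.76 (SE 0.26, adjusted p = 0.0228), Ass1 at −0.65 (SE 0.25, adjusted p = 0.0430), Fah at −0.59 (SE 0.17, adjusted p = 0.00832) and Dao at −0.43 (SE 0.12, adjusted p = 0.00666). Hpd, at −0.34 (SE 0.42, adjusted p = 0.530), Miox, at −0.47 (SE 0.30, adjusted p = 0.214), and Hgd, at −0.48 (SE 0.21, adjusted p = 0.0723), were not called, which does not show that they equalled WT. The call of Ass1 was lost in 8 of 11 fits with a mouse left out, with flow cell as a term (adjusted p = 0.0633), with library totals alone (adjusted p = 0.124), with no filter or the stricter filter on low counts (adjusted p = 0.0609 and 0.0521) and with either limma test. With library totals alone Gatm (adjusted p = 0.0810) and Dao (adjusted p = 0.0688) also lost their calls, as they did with either limma test. Without the libraries with liver transcripts 3 members were called, with Fah (adjusted p = 0.0509) and Ass1 (adjusted p = 0.0555) lost, and without WT mouse A6 also 3, with Gatm (adjusted p = 0.0958) and Ass1 (adjusted p = 0.0683) lost. Without the libraries with fat transcripts, Hgd (−0.52, adjusted p = 0.0163) and Miox (−0.50, adjusted p = 0.0465) were called too. With only the groups compared, 7 members were called, with Hgd (−0.48, adjusted p = 0.00528) and Miox (−0.47, adjusted p = 0.0174) gained. Hgd was also called with DESeq2 (−0.51, adjusted p = 0.0397) and without Anti-miR-21 mouse A22 (−0.56, adjusted p = 0.0485).

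Anti-miR-21 and ACEi were compared directly, with ramipril and lademirsen each at its own dose. With edgeR 0 of the 9 members were called, where 0.363% of all genes tested were called higher with anti-miR-21 and 0.221% lower. At an unadjusted p under 0.05, edgeR gave 1 member, DESeq2 gave 1 and limma on the FPKM gave 1, in each case Hpd. This comparison shares the Anti-miR-21 mice with the one that chose the members after Hpd was seen. The tools used the same mice, and the share of all genes at an unadjusted p was not taken, so nothing is read from this count. Hpd was higher with anti-miR-21 by 1.26 (SE 0.52, unadjusted p = 0.0257, adjusted p = 0.275), and the lowest Anti-miR-21 mouse, at 19.3 CPM, was just above the highest ACEi mouse, at 18.8 CPM. Of all genes tested, 4.19% had every Anti-miR-21 mouse above every ACEi mouse. The remaining members differed by −0.16 (Gldc) to 0.42 (Miox), each within 2 SE of 0.

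The position of each treated mouse between the group means of Veh (0%) and WT (100%) on log2 CPM puts these values on a common scale. For Hpd it was 93.0% ± 13.1 (SD, n = 6) with anti-miR-21, from 72.8% in A8 to 106.8% in A12, and 70.4% ± 2.76 (SD, n = 3) with ACEi. For Gldc it was 50.3% ± 12.4 with anti-miR-21 and 57.8% ± 7.26 with ACEi. For the mean of the proximal tubule markers it was 75.5% ± 11.1 and 69.0% ± 7.89. Miox lay at 84.1% ± 10.4 and 71.1% ± 6.50, Hgd at 79.1% ± 11.3 and 74.6% ± 6.08, Fah at 73.9% ± 15.2 and 59.0% ± 5.02, Ass1 at 74.2% ± 12.8 and 75.2% ± 12.5, Dao at 73.9% ± 13.3 and 67.5% ± 8.24, and Gatm at 66.5% ± 7.26 and 68.1% ± 12.2. Bbox1 was left out for its low counts. Relative to the marker mean of the same mouse, Hpd was higher than in Veh by 3.29 on the log2 scale with anti-miR-21 and by 2.27 with ACEi, Miox by 1.22 and 0.93, Ass1 by 0.52 and 0.66 and Hgd by 0.50 and 0.51. Fah differed by 0.38 and 0.14, Gatm by 0.02 and 0.17, Gldc by −0.20 and 0.09 and Dao by −0.13 and −0.12. These positions and differences share the Veh and WT means and were not tested. Hpd was first seen for its rise in these Anti-miR-21 mice over Veh, so its position there is not independent of the choice.

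**Figure D4:**
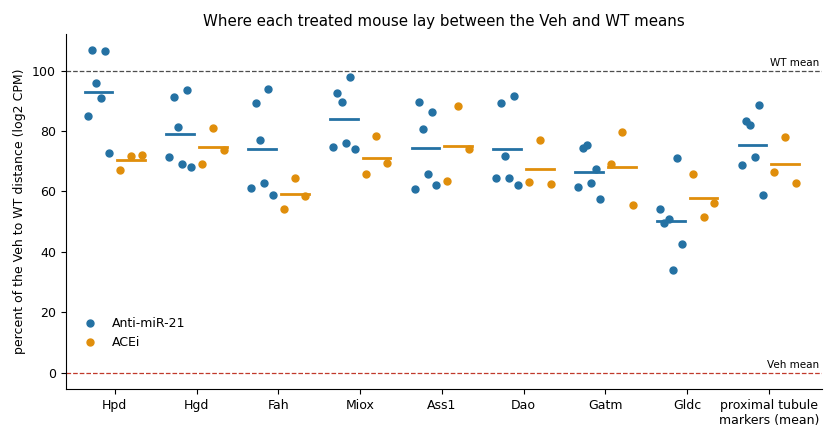
Position of each treated mouse between the means of Veh (0%, dashed) and WT (100%, dashed) on log2 CPM, for 8 genes and for the mean of 11 proximal tubule markers, with lines at the group means. The Anti-miR-21 mice reach 93.0% on average for Hpd, which was chosen after its rise in these mice was seen, and 50.3% for Gldc.

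Other genes of the same routes were taken from 11 pathway lists with 135 genes, of which 129 were tested. Of these, 111 were called lower and 10 higher when Veh was set against WT, where 34.0% and 39.0% of all genes tested were, and the median of their log2 fold changes was −1.60. With ACEi, 104 were called higher and 8 lower than in Veh, where 21.0% and 19.1% of all genes tested were. The 112 called fell to 88 without the libraries with liver transcripts and to 78 on flow cell B alone. With anti-miR-21, in the comparison that chose the members, values are given below with no test. The lists were written with results of these data known.

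In phenylalanine and tyrosine breakdown, 6 of 7 genes were lower in Veh and all 6 of these were called higher with ACEi. Gstz1, which acts between Hgd and Fah, had a log2 fold change of −2.11 (SE 0.15, adjusted p = 1.49e-10) in Veh, 1.62 with anti-miR-21 and 1.29 with ACEi. Pcbd1, which regenerates a pterin cofactor, had −1.80, 1.52 and 1.07. Tat, the tyrosine aminotransferase of the liver, had a mean of 0.490 CPM in WT and was not called. Hpd, at −4.62, had the larger value, a difference that was not tested.

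The route around Ass1 and Gatm was divided. Of 17 tested genes of arginine, creatine, ornithine and proline, 10 were lower and 4 higher in Veh. Odc1, which makes putrescine from ornithine, fell by 3.34 on the log2 scale (SE 0.24, adjusted p = 1.51e-10), from a mean of 2342 to 232.1 CPM. The 4 that rose were the arginases Arg1, by 3.27 (SE 0.62, adjusted p = 7.92e-05), and Arg2, which break down arginine, and Aldh18a1 and Pycr1, which make proline. Arg2 rose from 6.32 to 28.0 CPM, Aldh18a1 from 3.97 to 23.2 CPM and Pycr1 from 0.689 to 2.75 CPM, and all 4 were called lower with ACEi than in Veh. Arg1 had means of 3.59 CPM in Veh, 0.0590 CPM with anti-miR-21 and 0.230 CPM with ACEi. Otc did not have enough counts to be tested, with 0.209 CPM in WT.

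Around Gldc and Dao, 20 of 21 tested genes of glycine, serine, sarcosine and hydroxyproline were lower in Veh. Bhmt and Bhmt2, which pass methyl groups to homocysteine, and Dmgdh, which takes a methyl group from dimethylglycine, had log2 fold changes of −3.38, −2.94 and −2.89. Phgdh, the entry to serine synthesis, was the exception and rose by 1.48 (SE 0.19, adjusted p = 4.26e-07), from 17.9 to 50.2 CPM. Tdh, Sds and Agxt did not have enough counts to be tested. Of 6 tested peroxisomal oxidases and D-amino acid enzymes 5 were lower, with Cat at −2.22, Hao2 at −1.97 and the serine racemase Srr at −1.56, and the polyamine oxidase Paox was higher, at 0.57. Hao1 was not tested.

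For Miox, 8 of 10 genes of the inositol and glucuronate-xylulose route were lower, led by Khk at −2.74, Sord at −2.47 and Dcxr at −2.12, while Isyna1, which makes inositol, was higher by 1.43 (SE 0.10, adjusted p = 1.03e-10) in Veh. For Bbox1, all 6 tested carnitine genes were lower, among them Aldh9a1, which makes the substrate of Bbox1, at −2.20, the carnitine transporter Slc22a5 at −1.74 and Cpt2 at −1.57. Tmlhe had no matching entry.

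In the routes of the other amino acids, all 23 branched-chain amino acid genes were lower in Veh, with Acat1 at −2.86, Aldh6a1 at −2.60 and Ivd at −2.44. In lysine and tryptophan breakdown 13 of 15 were lower, with Ido2 at −3.72, Haao at −3.31 and Aadat at −3.21, and the kynureninase Kynu was higher, at 1.19. In methionine and cysteine breakdown 10 of 11 were lower, with Cbs at −3.03, Cth at −2.58 and Ahcy at −2.44. Of 8 glutamine and glutamate genes 7 were lower, with Aspa at −2.79, Ggt1 at −2.59 and Gpt at −2.41, and the asparagine synthetase Asns was higher, at 1.22. Of 5 histidine genes 3 were lower, with Ftcd at −2.32 and Amdhd1 at −1.20, and Hal was higher, at 1.39, from 0.401 to 1.06 CPM.

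**Figure D5:**
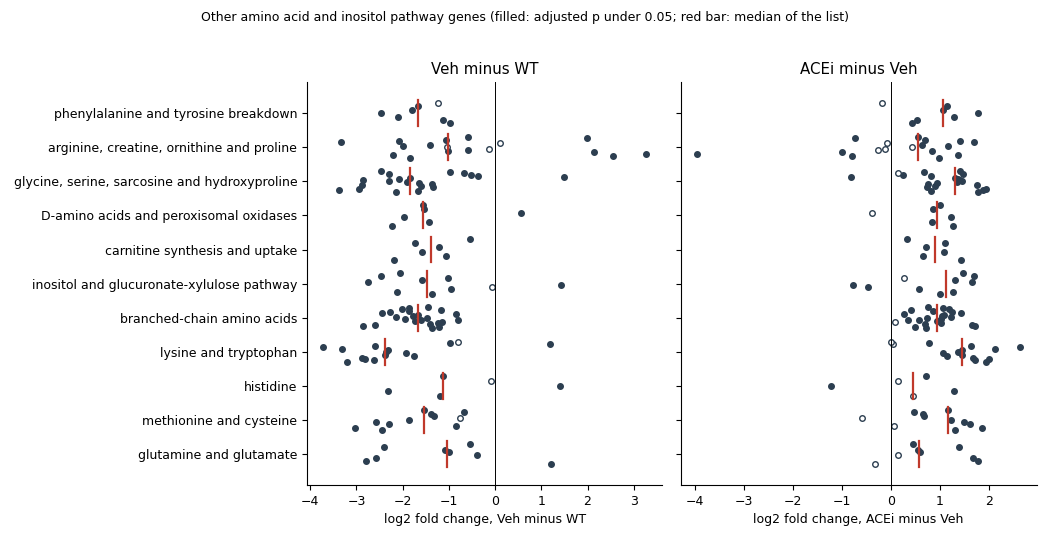
Log2 fold change of each tested gene of the 11 pathway lists, Veh minus WT on the left and ACEi minus Veh on the right, with filled points for an adjusted p under 0.05 and a red bar at the median of the list. All medians lie below 0 on the left and above 0 on the right, and the points on the far side include Arg1, at 3.27 in Veh minus WT.

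The gene most like each member was taken as the protein-coding gene, members excluded, with the highest Pearson correlation of log2 CPM over the 20 mice. It was Dmgdh for Hpd (r = 0.984), Slc22a6 for Hgd (0.999), Cisd1 for Fah (0.997), Slc34a3 for Gatm (0.980), Slc44a4 for Dao (0.997), Slc22a22 for Miox (0.996), Abhd3 for Ass1 (0.995), Slc16a14 for Gldc (0.969) and Slc5a1 for Bbox1 (0.903). For the mean of the 9 members these were Sord, Abcg2, Pbld2, Slc13a3 and Lrrc19, with r from 0.995 to 0.997. The 20 mice fall into separate groups, so these correlations describe likeness across groups and carry no test.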

How the data were processed

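Kidney RNA of 20 mice was measured by paired-end RNA sequencing. The authors aligned the reads with OSA4 in OmicSoft Studio to GRCm38 and deposited estimated counts per gene (29.1% of the positive values were not whole, and they were rounded here) and FPKM values from another gene model, with exon lengths. The deposited alignment count was 70004591 to 73294858 per library. In the FPKM table, 3 libraries belonged to no sample and were not used.

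Groups came from the labels, and each replicate is a separately named mouse. Counts were tested with edgeR 4.0.16 (quasi-likelihood, R 4.3.3) over all 20 mice with TMM scaling, after filterByExpr (minimum count 10, minimum total 15), adjusted after Benjamini-Hochberg, at a threshold of 0.05. Log2 CPM used a prior count of 2. The alternatives were DESeq2 1.42.0, limma 3.58.1 on log2(FPKM + 1) or log2(FPKM + 0.1), other scalings and filters, flow cell, the groups compared alone, and each mouse left out. FPKM served only to compare levels between genes and in the limma tests. All tests are two-sided. The fit was also run on simulated counts with the same spread per gene in all groups. That run cannot show how the fit behaves when groups differ in spread.

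The members and lists were chosen with earlier results of these data known. In each pathway list the genes named are up to 3 with the largest change in Veh vs WT past the threshold, every gene called against most of its list, and genes that were not tested. Some genes are not reported here. Likeness was the highest Pearson correlation over the 20 mice.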

Additional observations from a re-analysis of the deposited data

Results flagged for a closer look

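Veh mouse A16 stood apart from the other Veh mice in 2 of 27 groups of values examined. Its level of Fah was 175.4 CPM, with a gap to the next Veh mouse of 0.664 of the range of the group. Its level of Dao was 207.8 CPM, with the next at 150.1 CPM, a gap of 0.668 of the range. Both gaps exceed Dixon's critical value of 0.625 for 6 samples, and chance alone flags about 1 in 20 groups. A16 had the highest level of all 9 members in Veh, so these flags are not independent of each other.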

How the results depend on the processing

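Of 1236 fold changes of members under the alternatives, 1143 kept their direction and their side of the threshold, 56 lost the threshold, 21 gained it, 5 moved and 11 changed sign. Of the counts, 193 stayed within 1.5 times the reported one and 11 did not. No paired analysis was possible because the mouse names are unique to each mouse. Flow cell A, with 1 ACEi library, was not run alone for comparisons that include ACEi. Flow cell B alone and both exclusions of libraries were chosen after seeing the data.

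Members called in ACEi vs WT (4 reported) were 2 with limma on log2(FPKM + 1), 2 on log2(FPKM + 0.1), 7 with flow cell as a term, 8 with only the groups compared, 0 without the libraries with Serpina3k above 1 CPM and 8 without those with Adipoq above 10 CPM, and 3 to 5 when a mouse was left out. Members called in Anti-miR-21 vs WT (5 reported) were 2 with either limma test, 2 with library totals alone, 3 without the Serpina3k libraries, and 3 (without WT mouse A6) to 6 (without Anti-miR-21 mouse A22) when a mouse was left out. In the same comparison 6 members were called with DESeq2, 7 with only the groups compared and 7 without the Adipoq libraries. When a mouse was left out, 8 to 9 members were called in Veh vs WT and in ACEi vs Veh.

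Bbox1 changed sign in Veh vs WT on flow cell B alone (0.69) and in ACEi vs WT without the Serpina3k libraries (−0.77), with −0.11 to 0.45 when a mouse was left out. In Anti-miR-21 vs ACEi, Gatm became 0.12 with flow cell as a term and lay at −0.16 to 0.091 when a mouse was left out, and Ass1 became 0.10 with flow cell as a term and 0.31 without the Serpina3k libraries and lay at −0.16 to 0.17. With library totals alone, the share of called genes that were higher moved from 48.6% to 19.96% in Anti-miR-21 vs Veh and from 52.4% to 20.5% in ACEi vs Veh, with all 9 members still above 0. The cause of these changes was not tested. Depth limits Bbox1, which had at most 35 estimated counts in a mouse.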
